A study of Mus musculus with 2 samples.

Results

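Fatty acid and sterol synthesis genes were examined in single-cell transcriptomes of mouse lung, above all in alveolar type 2 (AT2) cells, the cells that make surfactant. The set held 42 genes of the 32285 in the count matrices, taken by symbol from a fixed list: 16 of fatty acid synthesis, desaturation, elongation and activation, 7 of glycerolipid and phosphatidylcholine synthesis, 14 of sterol synthesis and 5 regulators of the SREBP transcription factors. All 42 symbols were found in both matrices. The study deleted Cebpa, which encodes the transcription factor C/EBPα, in AT2 cells and asked what its loss does to lung tissue. Whole lungs were dissociated 26 weeks after the first tamoxifen dose and sequenced as 2 libraries, 1 per genotype.

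The library labelled Cebpa FF came from Cebpa fl/fl control mice. The library labelled Cebpa KO came from Sftpc-CreER+ Cebpa fl/fl mice, in which tamoxifen activates a Cre driven by the Sftpc promoter, so that recombination is aimed at AT2 cells. Both genotypes carried the floxed alleles on mixed genetic backgrounds, and the study's methods give 3 months as the usual age of its mice. Tamoxifen was given as 5 daily doses of 75 mg/kg, with further weekly injections for mice studied later than 3 months after that, and the methods date the lungs of both genotypes from the first dose. The methods name 3 mice per genotype, but the barcodes do not tell the mice apart, so each genotype is 1 library with no replicate. Differences between the libraries therefore have no replicate check, no test was possible, and each interval below is an exact 95% interval that covers counting error only. The 2 libraries are called FF-labelled and KO-labelled here.

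Lipid synthesis in AT2 cells supplies surfactant, which is mostly phosphatidylcholine with saturated fatty acyl chains, together with cholesterol. Fatty acids are built from acetyl-CoA by Acly, Acaca and Fasn, then desaturated, elongated, activated by acyl-CoA synthetases and joined to glycerol and choline. Sterols are built from the same acetyl-CoA through mevalonate, farnesyl diphosphate, squalene and lanosterol. SREBP1, encoded by Srebf1, mainly drives the fatty acid genes, SREBP2, encoded by Srebf2, the sterol genes, while Scap escorts both to the Golgi for activation and the Insig proteins hold them back in the endoplasmic reticulum.

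The promoters of these genes were read for the letters that SREBP, NF-Y and C/EBP factors are known to bind, because the deleted gene encodes a C/EBP factor and SREBP acts together with NF-Y. RefSeq windows of 300 bases on GRCm38.p6, from 250 bases before the transcription start to 50 after it, were at hand for 34 of the 42 genes, and not for Fads1, Scd1, Scd2, Dgat1, Dgat2, Fdps, Fdft1 and Sqle. The NF-Y letters CCAAT, on either strand, stood in a window of 25 of these 34 genes (73.5%) against 41.1% of all 27025 genes with a window. By arm they stood in 10 of 11 sterol genes, 9 of 13 fatty acid genes, 4 of 5 regulators and 2 of 5 glycerolipid genes. The sterol regulatory letters TCACNCCAC stood in 3 genes, Acsl1, Hmgcs1 and Pcyt1a (8.82%, against 1.44% of all genes). The C/EBP letters TTNNGCAA stood in 3 genes, Dhcr7, Gpam and Nsdhl (8.82%, against 12.2%). A match of letters is a description of the window and not a bound site. The 4 windows below, of Fasn, Hmgcs1, Gpam and Dhcr7, are shown as examples. Fasn is the fatty acid synthase, and Hmgcs1, which makes HMG-CoA, holds both the sterol regulatory letters and CCAAT. Gpam and Dhcr7 hold the C/EBP letters, and of their several windows the one with these letters is shown. The Dhcr7 window at chr7:143829964-143830263, not shown, holds 2 CCAAT matches and no C/EBP match. Capitals mark every match to 1 of the 3 motifs, and 2 CCAAT matches of Fasn on opposite strands share letters.
Fasn, chr11:120824498-120824797, minus strand: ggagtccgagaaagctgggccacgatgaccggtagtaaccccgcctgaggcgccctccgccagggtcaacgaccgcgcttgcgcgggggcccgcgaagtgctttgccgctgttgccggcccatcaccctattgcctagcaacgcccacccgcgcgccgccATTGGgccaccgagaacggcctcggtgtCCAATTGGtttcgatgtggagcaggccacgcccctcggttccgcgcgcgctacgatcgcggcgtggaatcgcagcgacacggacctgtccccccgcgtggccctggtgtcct
Hmgcs1, chr13:119690101-119690400, plus strand: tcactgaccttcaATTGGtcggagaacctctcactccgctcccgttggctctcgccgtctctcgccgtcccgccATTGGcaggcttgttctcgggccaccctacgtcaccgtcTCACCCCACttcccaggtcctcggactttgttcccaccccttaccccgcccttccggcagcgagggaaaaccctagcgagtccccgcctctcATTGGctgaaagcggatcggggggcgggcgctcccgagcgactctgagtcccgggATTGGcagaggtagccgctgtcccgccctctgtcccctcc
Gpam, chr19:55127189-55127488, minus strand: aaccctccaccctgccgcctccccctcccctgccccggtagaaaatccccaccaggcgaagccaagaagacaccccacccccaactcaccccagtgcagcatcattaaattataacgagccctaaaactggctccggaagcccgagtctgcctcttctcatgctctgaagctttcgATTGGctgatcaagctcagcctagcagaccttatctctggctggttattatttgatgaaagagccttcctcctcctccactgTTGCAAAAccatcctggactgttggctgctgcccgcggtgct
Dhcr7, chr7:143822917-143823216, plus strand: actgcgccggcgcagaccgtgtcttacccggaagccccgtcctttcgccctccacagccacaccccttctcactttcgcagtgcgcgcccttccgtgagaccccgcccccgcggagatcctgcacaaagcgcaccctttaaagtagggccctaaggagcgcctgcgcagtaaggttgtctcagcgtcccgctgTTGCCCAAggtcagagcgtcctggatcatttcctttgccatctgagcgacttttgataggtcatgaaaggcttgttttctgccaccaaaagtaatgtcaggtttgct

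AT2 cells were taken as barcodes with Sftpc, the gene of surfactant protein C, at 3% or more of their UMIs (unique transcript tags) and with 3000 or more UMIs. This gave 452 cells with 9552310 UMIs in the FF-labelled library and 74 cells with 1256409 UMIs in the KO-labelled library, which was 3.93% and 0.559% of the 11487 and 13238 barcodes kept. Their median depth was 21600 and 20481.5 UMIs, but 28 of the 74 KO-labelled cells and 35 of the 452 FF-labelled cells had under 10000. Few FF-labelled cells lay near the limits, but the KO-labelled number depended on them. With 3000 UMIs, 0 FF-labelled and 2 KO-labelled cells had Sftpc between 3% and 4%, and 1 and 10 had it between 2% and 3%. Limits of 1% Sftpc would give 454 and 132 cells, and of 1000 UMIs 470 and 245 cells. Below 3000 UMIs, 26 FF-labelled and 232 KO-labelled barcodes had Sftpc at 3% or more. The libraries shared 44 barcodes, none of them in the AT2 cells of both. Levels are given as CPM, the UMIs of a gene per 1000000 UMIs of the pooled cells; since each transcript gives 1 tag at its 3′ end, they were not scaled to gene length.

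The cells were AT2 cells by their markers in both libraries, with all 12 markers found. Summed, these markers stood at 247518 and 208619 CPM in FF-labelled and KO-labelled cells, of which Sftpc, used to choose the cells, was 188815 and 154385 CPM. Abca3, the lamellar body lipid transporter, had 720 and 676 CPM and Lamp3, a lamellar body protein, 1436 and 1468 CPM. Sftpb, Sftpa1 and Napsa were lower in KO-labelled cells, with log2 ratios of -0.18, -0.18 and -0.19 and intervals off 0, while the lysozyme gene Lyz1 was higher, at 20.3 and 132 CPM. Cebpa itself stood at 152 CPM (145 to 160) and 131 CPM (111 to 152), a log2 ratio of -0.22 (-0.46 to 0.01), so its transcript tags do not show a depleted target in the KO-labelled AT2 cells. Whether those tags lie outside the floxed part is not given in the sources used here, and they may check nothing. Every direction below is for that reason one between libraries as labelled. Markers of other cells were found at higher summed levels in the KO-labelled AT2 cells: neutrophil 3.04 and 189 CPM, erythroid 50.2 and 389 CPM, macrophage 25.4 and 125 CPM, endothelial 770 and 1095 CPM, and fibroblast 915 and 1127 CPM in FF-labelled and KO-labelled cells. Airway secretory markers went the other way as a sum, at 3093 and 1067 CPM, but not in the median cell, at 197 and 306 CPM. Sums of AT1 (2635 and 2281 CPM), ciliated (143 and 63.7 CPM), lymphatic endothelial and mesothelial markers were also lower in KO-labelled cells. The part of all these markers in the lipid gene results was not tested, except by leaving cells out as given below.

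With these limits on Sftpc and UMIs, the lipid synthesis genes were at similar or higher levels in the KO-labelled AT2 cells. The study reports less Sftpc after Cebpa deletion, so a limit on Sftpc can leave out cells that lost it. It also names lipid metabolism among the themes of the genes most lowered in its AT2 cells, which were chosen in another way. The part of the choice of cells in this contrast was not tested. Summed, the 42 genes took 10422 CPM (10357 to 10487) of the FF-labelled and 12406 CPM (12212 to 12602) of the KO-labelled AT2 cells, a log2 ratio of 0.25 (0.23 to 0.28). Without Scd1 that ratio was 0.12. With Sftpc at 1% or more, the fatty acid sum had a ratio of -0.0053 and the sterol sum -0.14 (-0.23 to -0.06). Both lay below the median over all genes with 50 or more UMIs, which was 0.18 at that limit, with 67.1% of genes above 0. At the main limits 55.8% were above 0. At that limit, 15 of 39 single-gene ratios had the opposite sign. Of the 39 genes with 50 or more UMIs over both libraries, 30 had a ratio above 1 and 9 below it, with a median log2 ratio of 0.10 against 0.05 over all 9870 genes with that many UMIs. Dhcr7 alone was 1.5-fold or more higher, while 9.39% of all genes were, and it fell under that size with Sftpc at 1% or at 10% or more (0.56 in both) and with barcodes limited to 500 genes and 10% mitochondrial counts (0.55). None was 1.5-fold or more lower, while 6.28% of all genes were. The counting interval lay wholly above a log2 ratio of 0 for 9 of the 39 genes and wholly below it for 0, against 9.97% and 4.99% of all genes, and it is narrower for a gene with more UMIs. The other 3 genes had too few UMIs for a ratio: Elovl6 had 6 and 2 UMIs, Thrsp 36 and 8, and Dgat2 10 and 0, in FF-labelled and KO-labelled cells. Taking 3 counts as the limit that a count of 0 allows, Dgat2 could stand at up to 2.39 CPM in the KO-labelled cells, and its exact interval reached 2.94 CPM.

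**Figure D1:**
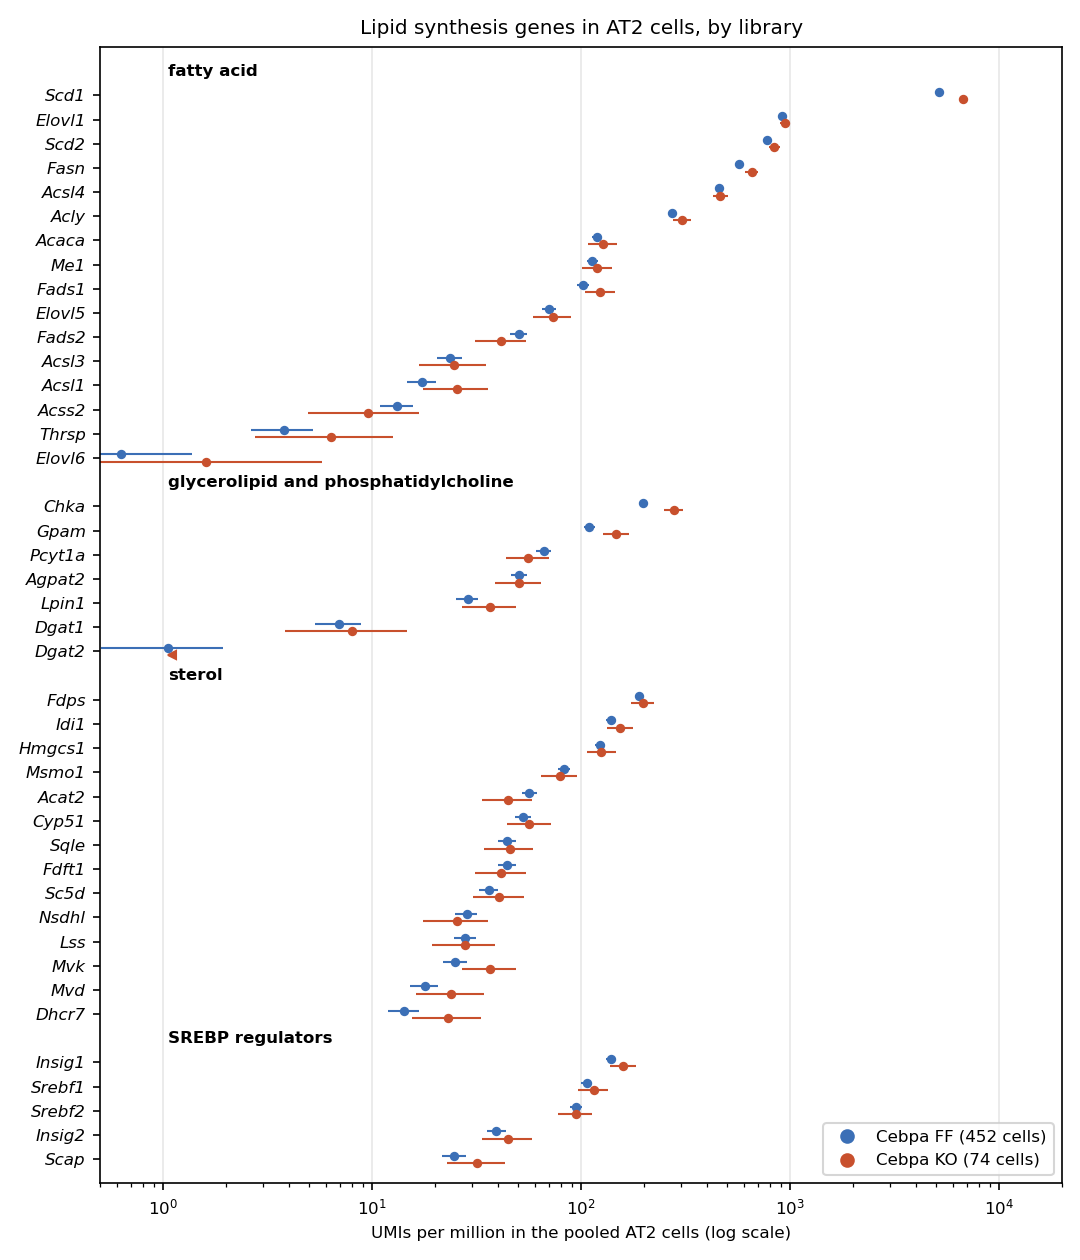
Level of each of the 42 genes in pooled AT2 cells, as UMIs per 1000000 on a log axis, by arm and ordered by the FF-labelled level; points are the 2 libraries (452 FF-labelled and 74 KO-labelled cells), bars are 95% counting intervals, and the arrowhead marks Dgat2 at 0 in KO-labelled cells. Levels span from Scd1, at 5179 and 6706 CPM, to Elovl6 and Dgat2 near 1 CPM, and the order of the genes is nearly the same in both libraries.

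In the fatty acid arm, 1 desaturase outweighed all other genes. Scd1, which makes monounsaturated from saturated acyl-CoA, stood at 5179 CPM (5133 to 5225) in FF-labelled and 6706 CPM (6564 to 6851) in KO-labelled AT2 cells. This was 59.7% and 64.1% of the arm's UMIs, and the rank of Scd1 among all genes by level was 15 and 14. Its log2 ratio was 0.37 (0.34 to 0.41). Summed, the 16 genes stood at 8677 and 10468 CPM, a log2 ratio of 0.27 (0.24 to 0.30), which was -0.0053 when cells with Sftpc at 1% or more were taken as AT2 cells. Without Scd1 the sums were 3498 and 3762 CPM and the ratio 0.10 (0.06 to 0.15), and the median over the 14 genes with enough UMIs was 0.08.

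The genes of the synthesis steps themselves were close between libraries. Fasn, which assembles palmitate, had 567 CPM (552 to 582.5) and 655 CPM (611 to 701), a log2 ratio of 0.21 (0.10 to 0.31). Acly, which makes cytosolic acetyl-CoA from citrate, had 271 and 305 CPM, a ratio of 0.17 (0.01 to 0.33). Acaca, the acetyl-CoA carboxylase, had 119 and 127 CPM, a ratio of 0.09 (-0.16 to 0.33). All 3 had their higher level in KO-labelled cells, by at most 1.15-fold, but with Sftpc at 1% or more all 3 ratios turned, to -0.093, -0.034 and -0.23, and that of Acaca was -0.19 as a mean over cells. Me1, a source of NADPH, had 113 and 119 CPM, and Acss2, which activates acetate, had 13.1 and 9.55 CPM, with a log2 ratio of -0.45 whose interval ran from -1.45 to 0.40.

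Desaturation and elongation showed the same closeness outside Scd1. Scd2, the second stearoyl-CoA desaturase, had 778 and 840 CPM, a log2 ratio of 0.11 (0.02 to 0.21). Elovl1, which elongates saturated and monounsaturated very long chains, had 912 and 947 CPM, a ratio of 0.05 (-0.03 to 0.14). The polyunsaturated branch was lower in level and did not move one way: Fads1 had 102 and 123 CPM (0.28, 0.02 to 0.52), Fads2 50.2 and 41.4 CPM (-0.28, -0.72 to 0.13) and Elovl5 70.2 and 73.2 CPM (0.06, -0.27 to 0.38). Elovl6, which elongates palmitate to stearate in liver and fat, was close to absent from AT2 cells of both libraries. Among the acyl-CoA synthetases, Acsl4, which prefers arachidonate, had 459 and 462 CPM, while Acsl1 had 17.3 and 25.5 CPM and Acsl3 23.4 and 24.7 CPM, and the intervals of all 3 ratios included 0.

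In the glycerolipid and phosphatidylcholine arm, Chka and Gpam were higher in the KO-labelled cells. Chka, a choline kinase that starts phosphatidylcholine synthesis from choline, had 198 CPM (189 to 207) and 277 CPM (249 to 308), a log2 ratio of 0.49 (0.32 to 0.65). Gpam, the mitochondrial acyltransferase that starts glycerolipid synthesis, had 109 CPM (103 to 116) and 147 CPM (127 to 170), a ratio of 0.43 (0.20 to 0.66). Both stayed under 1.5-fold, but the ratios moved either way with the choice of cells. With Sftpc at 1% or more they were 0.18 and 0.16, and without cells holding 3 or more markers of 1 non-epithelial type they were 0.72 and 0.62, past 1.5-fold. As a mean over cells they were 0.16 and 0.61, and that of Chka was 0.61 in cells of 10000 or more UMIs and 0.59 with Sftpc at 10% or more. Pcyt1a, which makes CDP-choline and is the regulated step of that branch, had 66.1 and 55.7 CPM, a ratio of -0.25 (-0.62 to 0.11). Agpat2 had 50.4 and 50.1 CPM, Lpin1 28.6 and 36.6 CPM, and Dgat1, which makes triglyceride, only 6.91 and 7.96 CPM. Summed, the 7 genes stood at 460 and 575 CPM, a log2 ratio of 0.32 (0.21 to 0.44). Counted per UMI other than Sftpc, this ratio was -0.38 (-0.88 to 0.11) in cells under 10000 UMIs, on 112 and 51 UMIs. In cells of 10000 or more UMIs it was 0.32 (0.20 to 0.44).

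The sterol arm stood nearly level between the libraries. Its 14 genes summed to 880 CPM (862 to 899) and 919 CPM (867 to 974), a log2 ratio of 0.06 (-0.03 to 0.15) with a median of 0.05, the same as the median of all genes. Of the early steps, Hmgcs1 had 123 and 125 CPM, a ratio of 0.02 (-0.23 to 0.26), and Acat2, the acetoacetyl-CoA thiolase, 56.5 and 44.6 CPM, a ratio of -0.34 (-0.77 to 0.06). Fdps, which makes farnesyl diphosphate and had the highest level of the arm, had 189 and 197 CPM, a ratio of 0.05 (-0.14 to 0.25). Idi1, the isomerase before it, had 139 and 154 CPM.

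Squalene synthesis and its later steps were as close. Sqle, the squalene epoxidase, had 44.1 and 45.4 CPM, Fdft1 44.1 and 41.4 CPM and Lss, which closes the ring, 27.7 and 27.9 CPM. Cyp51 had 52.7 and 56.5 CPM, Msmo1 82.8 and 78.8 CPM, Nsdhl 28.3 and 25.5 CPM and Sc5d 36.0 and 40.6 CPM. The intervals of these 7 ratios all included 0. The exceptions were low genes with few KO-labelled UMIs: Mvk, the mevalonate kinase, had 24.9 and 36.6 CPM on 238 and 46 UMIs (0.56, 0.07 to 1.02), and Dhcr7, the last step to cholesterol, 14.1 and 23.1 CPM on 135 and 29 UMIs (0.71, 0.08 to 1.29). Mvd had 17.8 and 23.9 CPM, with a ratio whose interval ran from -0.19 to 0.99.

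The regulators were expressed at similar levels. Insig1 had 139 and 159 CPM, Srebf1 106 and 115 CPM, Srebf2 94.6 and 93.9 CPM, Insig2 39.3 and 44.6 CPM and Scap 24.7 and 31.8 CPM. Summed, they had a log2 ratio of 0.14 (0.01 to 0.26), and the interval of each gene's own ratio included 0. For Srebf1 the ratio was 0.11 (-0.16 to 0.36) and for Srebf2 -0.01 (-0.30 to 0.27).

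**Figure D2:**
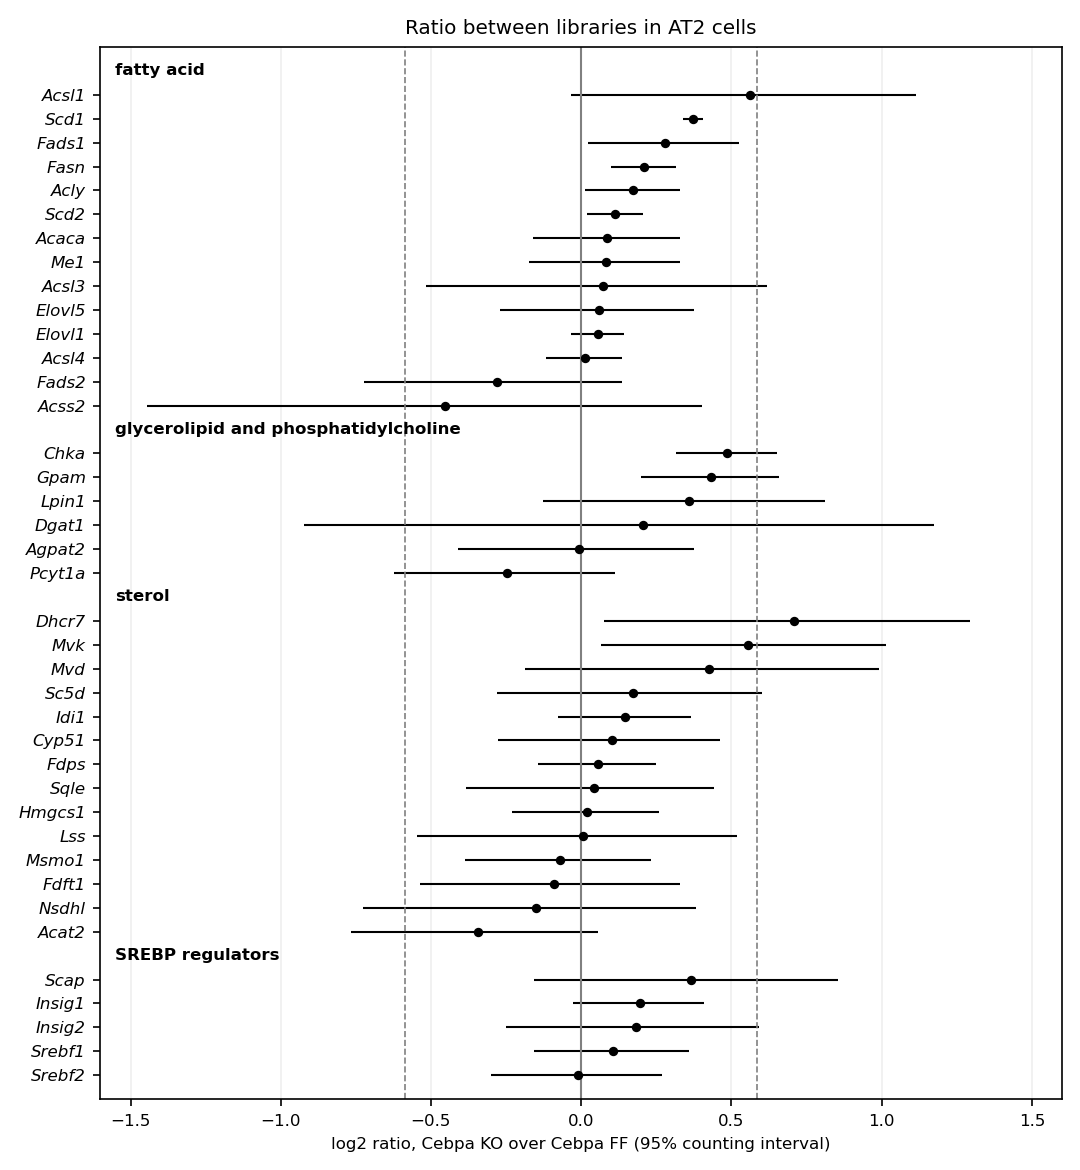
Log2 ratio of the level in KO-labelled over FF-labelled AT2 cells for the 39 genes with 50 or more UMIs, by arm; bars are 95% counting intervals and dashed lines mark 1.5-fold. Only Dhcr7 lies past a dashed line, at 0.71, and most intervals include 0.

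Genes of the same pathways outside the 42 did not share the higher sum. Of 59 such genes 44 had 50 or more UMIs, and their summed log2 ratio was -0.0035 (-0.05 to 0.04), with 19 above 0 and 25 below. Their intervals lay wholly above 0 for 7 genes and wholly below it for 3, against 9.97% and 4.99% of all genes. The 4 that were 1.5-fold or more higher were Acacb, Aacs, Agpat4 and Abca1, and the only one as much lower was Nr1h3, against the 9.39% and 6.28% of all genes. The intervals of Acacb, Agpat4 and Nr1h3, on 12, 17 and 11 KO-labelled UMIs, included 0, and those of Aacs and Abca1 did not. The 24 other fatty acid genes were lower as a sum, unlike the fatty acid arm itself, with a ratio of -0.11 (-0.19 to -0.03): Mid1ip1, which activates the acetyl-CoA carboxylases, had 554 and 487 CPM, Acsl5 192 and 182 CPM and the enoyl reductase Tecr 169 and 142 CPM. The 17 other glycerolipid genes summed to 0.02 (-0.04 to 0.09), led by Lpcat1, which remodels surfactant phosphatidylcholine, at 1103 and 1120 CPM. The 12 other sterol genes summed to 0.06 (-0.02 to 0.15), with Soat1, which esterifies cholesterol, at 385 and 365 CPM and Pmvk at 149 and 195 CPM. The 6 genes of LXR and sterol export summed to 0.35 (0.07 to 0.62) on 769 and 129 UMIs.

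Single AT2 cells differed far more among themselves than the pooled libraries did. In cells of 10000 or more UMIs, the fatty acid arm took between 838 and 35391 CPM with a median of 6819 in 417 FF-labelled cells, and between 2853 and 46712 CPM with a median of 8703 in 46 KO-labelled cells. The ranges of this sum in the libraries overlapped almost wholly, which does not make the cells alike in other genes. In the main clustering, 449 FF-labelled and 68 KO-labelled AT2 cells shared a cluster. With finer clusters, 40 of the 74 KO-labelled AT2 cells lay in a cluster with 0 FF-labelled cells. Scd1 was among the leading genes of that cluster. Another 28 lay in the cluster that held 449 FF-labelled AT2 cells. The sterol arm had medians of 653 and 803 CPM, with highest cells of 4947 and 3186 CPM. Thinned to 10000 UMIs per cell, the fatty acid arm had a variance of 42.6 times its mean in the FF-labelled and 61.8 times in the KO-labelled cells, which without Scd1 was 5.66 and 3.96 times. Most of the spread thus lay in Scd1. In the same thinned cells the fatty acid arm without Scd1 and the sterol arm went together, with Spearman's rho of 0.52 over 417 and 0.53 over 46 cells; the cells of a library share its depth and processing. The glycerolipid and phosphatidylcholine arm did not go with the sterol arm, with rho of 0.02 and -0.01.

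**Figure D3:**
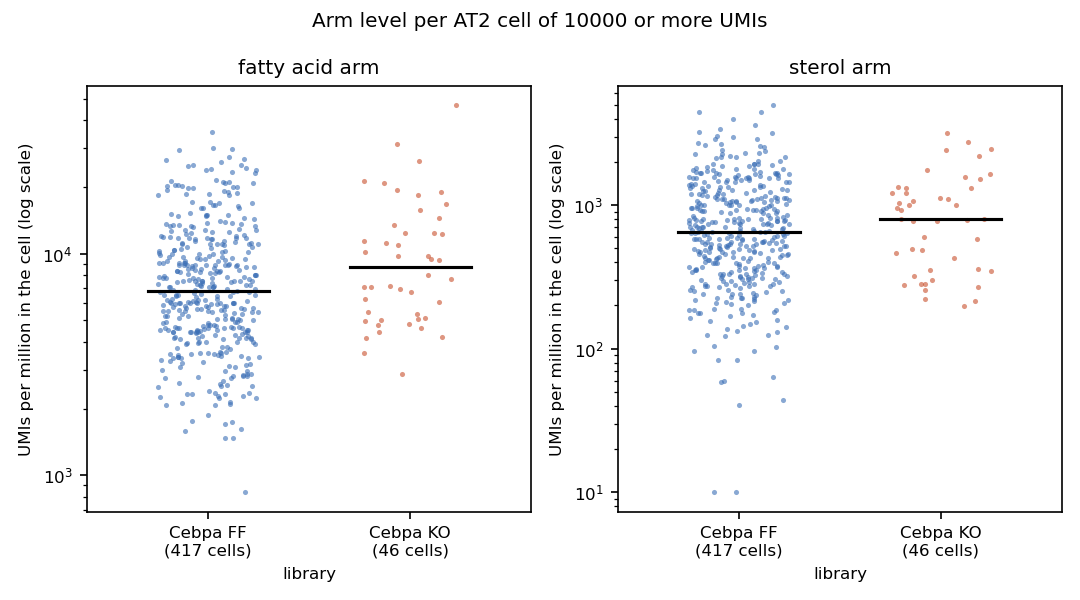
Level of the fatty acid and sterol arm in single AT2 cells of 10000 or more UMIs, as UMIs per 1000000 of the cell on log axes, for 417 FF-labelled and 46 KO-labelled cells; lines are medians and cells at 0 are drawn at 10. The medians of the fatty acid arm are 6819 and 8703 CPM and those of the sterol arm 653 and 803 CPM, with overlapping clouds.

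The higher fatty acid sum of the KO-labelled cells was not spread evenly over them. Counted per 1000000 UMIs other than Sftpc, so that Sftpc itself does not enter, cells with Sftpc under 10% had 5213 CPM in 14 FF-labelled and 11347 CPM in 13 KO-labelled cells. A single KO-labelled cell at 51690 CPM carried much of this: without the highest cell of each library the sums were 4763 and 6821 CPM, and the medians were 4832 and 5096 CPM. Cells with Sftpc between 10% and 20% had 10889 CPM in 248 and 13009 CPM in 49 cells, a log2 ratio of 0.26 (0.23 to 0.29). Cells with 20% or more had 10800 CPM in 190 and 10466 CPM in 12 cells, a ratio of -0.05 (-0.12 to 0.02). Scd1 alone, over all AT2 cells and without the highest cell of each library, had 6297 and 7408 CPM of UMIs other than Sftpc. The fatty acid sum also moved with the choice of cells. With Sftpc at 1% or more, which took in 2 more FF-labelled and 58 more KO-labelled cells, its log2 ratio was -0.0053 (-0.03 to 0.02). Without cells holding 3 or more markers of 1 non-epithelial type it was 0.37 (0.33 to 0.40) in 320 and 43 cells, and the sterol sum was 0.23 (0.12 to 0.33).

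Other lung cell types were named from clusters made without the lipid genes, each as a type-like cluster by its markers, and only their cells of 3000 or more UMIs outside the AT2 cells were used. The fatty acid arm was far higher in AT2 cells than elsewhere. Against 8677 and 10468 CPM in AT2 cells, all other cells together had 686 CPM in 7757 FF-labelled and 644 CPM in 6138 KO-labelled cells. The sterol arm was 880 and 919 CPM in AT2 cells and 294 and 278 CPM in the others, a smaller gap. Scaled to the Sftpc found in them, stray RNA of AT2 cells amounted to between 0.77% and 8.17% of the fatty acid arm in the other named types, apart from 32.0% in KO-labelled AT1-like cells. In every type compared between libraries except AT1-like cells, this share was larger in the FF-labelled library. It was 5.58% and 1.03% in FF-labelled and KO-labelled endothelial-like cells, 3.91% and 0.97% in fibroblast-like cells, and 3.22% and 2.94% in ciliated-like cells. Such a gap lowers the fatty acid ratio of KO-labelled over FF-labelled cells, and the ratios below were not corrected for it. AT2 cells had the highest level of 21 of the 42 genes among 12 FF-labelled types, and of 26 among 15 KO-labelled groups. The interval was apart from that of the next type for 14 of the 21 and 13 of the 26. These included Fasn, whose highest other FF-labelled type, monocyte-like cells, was 15.5-fold lower. The KO-labelled groups took in 44 cells with Sftpc under 3%, named AT2-like by their cluster, a group that the FF-labelled types lacked. These cells had the airway secretory genes Scgb1a1 and Scgb3a1 at 79979 and 9534 CPM, against Sftpc at 3374 CPM, so the name is uncertain for them. The group was the next KO-labelled one for Fasn, 3.73-fold lower, and for Scd1, 4.15-fold lower. The FF-labelled and KO-labelled counts are therefore not alike. The same counts over all genes are not given here, so these counts describe the 42 genes and do not set them apart.

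**Figure D4:**
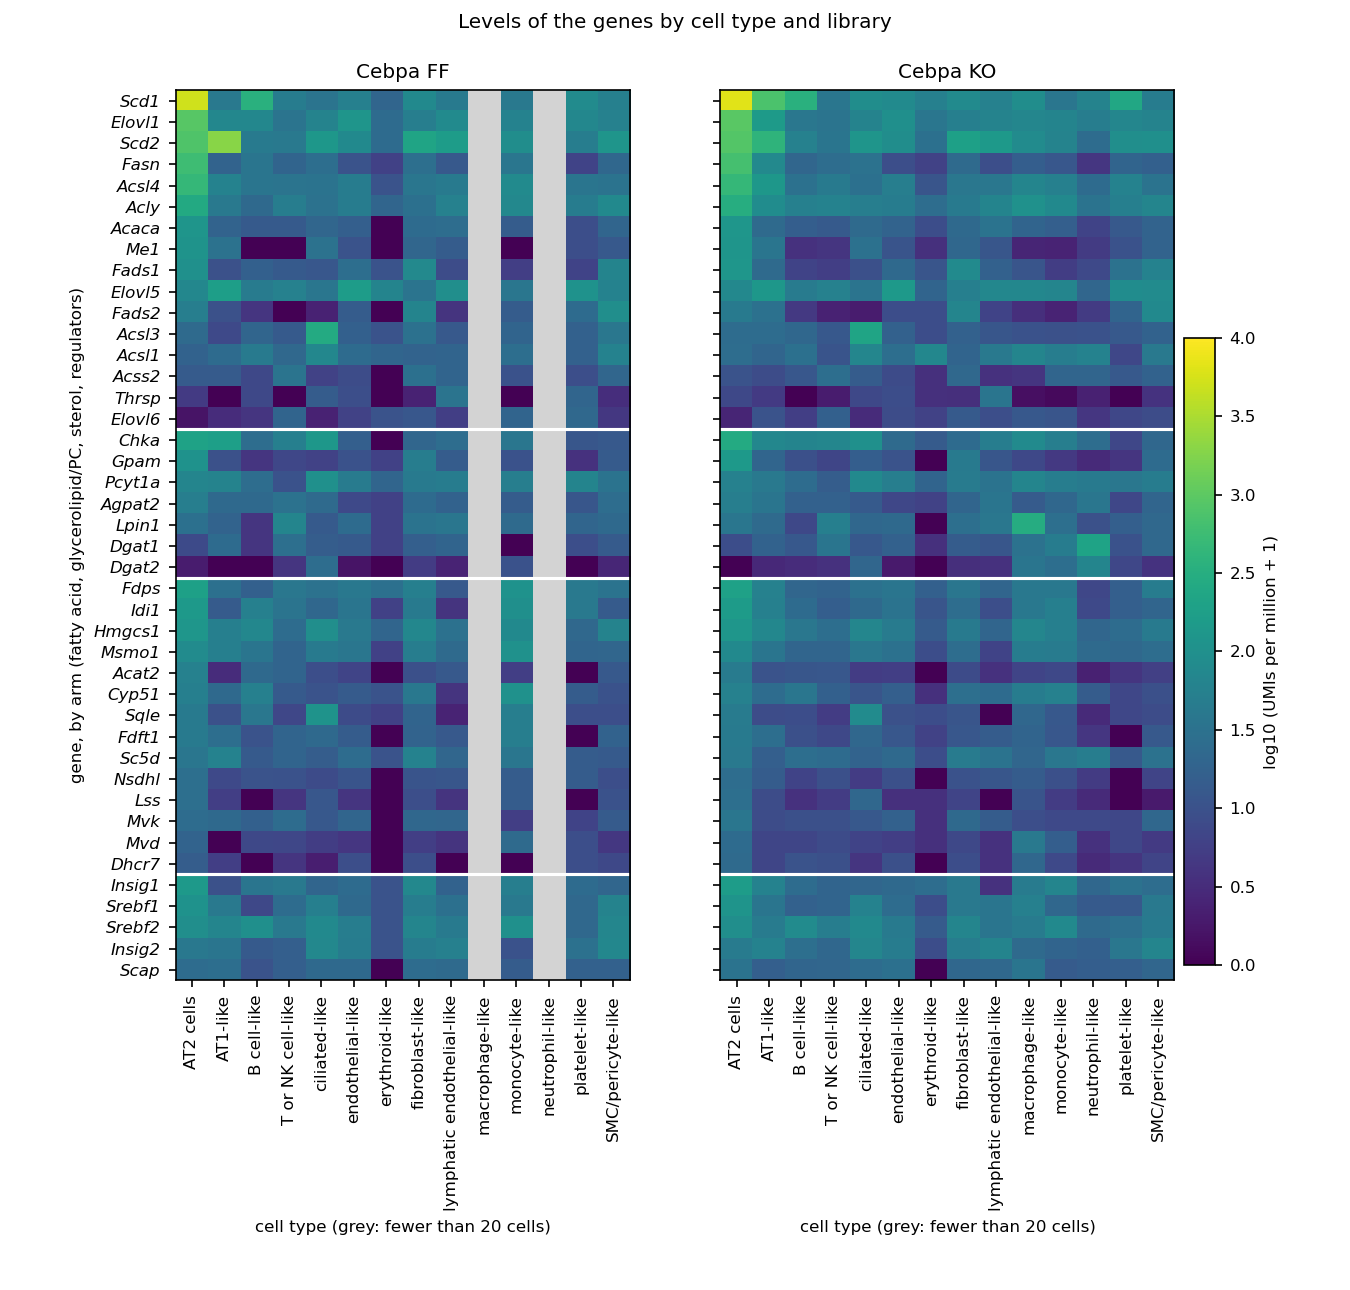
Level of the 42 genes in AT2 cells and in 13 other cell types of each library, as log10 of UMIs per 1000000 plus 1, with genes in rows by arm and types in columns; grey columns had fewer than 20 cells. Scd1, Elovl1 and Fasn are brightest in AT2 cells of both libraries, Acsl3 in ciliated-like cells, and Lpin1 and Dgat1 in KO-labelled macrophage-like and neutrophil-like cells.

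Among the named types, several genes had their highest level outside AT2 cells. Acsl3, the acyl-CoA synthetase of the endoplasmic reticulum and lipid droplets, stood at 273 CPM in FF-labelled and 217 CPM in KO-labelled ciliated-like cells, against 23.4 and 24.7 CPM in AT2 cells. Sqle stood at 114 and 84.3 CPM there, above the 44.1 and 45.4 CPM of AT2 cells. Both genes were thus led by ciliated-like cells in each library. The airway secretory gene Scgb1a1 stood at 3481 CPM in the FF-labelled and 67762 CPM in the KO-labelled ciliated-like cells, and their own 8 markers summed to 12722 and 9893 CPM. Its part in these values was not tested. Elovl5, which elongates polyunsaturated chains, stood at 175 and 132 CPM in AT1-like cells and 164 and 142 CPM in endothelial-like cells, with overlapping intervals, and Fads2, the first desaturase of that path, at 92.1 and 77.5 CPM in smooth muscle or pericyte-like cells. Thrsp, a lipogenic protein named for its thyroid hormone response, stood at 33.7 and 35.2 CPM in lymphatic endothelial-like cells on 22 and 13 UMIs, against 3.77 and 6.37 CPM in AT2 cells. The leading interval overlapped that of the next type for Fads2 in the KO-labelled and Thrsp in the FF-labelled library. Clusters left without a name were not ranked, and some stood higher. In the one led by Scgb1a1 and Wfdc2, Thrsp had 99.8 and 3.64 CPM on 50 and 3 UMIs (-4.78, -7.10 to -3.15). In the one led by C1qa and C1qb, Elovl5 had 187 and 53.6 CPM in FF-labelled and KO-labelled cells.

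In the KO-labelled library, myeloid cells had the highest levels of Lpin1, Dgat1 and Dgat2. Gpam and Agpat2 of the same arm were highest in AT2 cells of both libraries, Agpat2 with an interval that overlapped the next. Lpin1, the phosphatidate phosphatase that makes diacylglycerol, stood at 301 CPM in 278 macrophage-like cells, and Dgat1, which makes triglyceride from it, at 208 CPM in 249 neutrophil-like cells. Dgat2, the second enzyme for this step, stood at 64.8 CPM in neutrophil-like and 35.0 CPM in macrophage-like cells, against 10 UMIs and 0 in FF-labelled and KO-labelled AT2 cells. The FF-labelled library held 1 macrophage-like and 13 neutrophil-like cells of that depth, so the genotypes could not be set side by side in these types. Those 13 cells held 91 UMIs of the glycerolipid and phosphatidylcholine arm among 89472, so the arm was not absent from them.

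AT1-like cells, the flat cells of gas exchange, had a fatty acid sum of 2466 CPM in 44 FF-labelled and 1885 CPM in 76 KO-labelled cells, but of different genes. In FF-labelled cells Scd2 gave 1953 CPM (882 UMIs), above the 778 CPM of AT2 cells, and Scd1 39.8 CPM. In KO-labelled cells Scd2 stood at 392 CPM and Scd1 at 742 CPM. The KO-labelled cluster was not alike in markers: its summed AT1 markers stood at 6517 against 46821 CPM, Ager at 1434 against 17852 CPM, while Sftpc stood at 8896 against 640 CPM and the hemoglobin gene Hbb-bs at 3278 against 31.0 CPM. The part of these in the Scd1 and Scd2 values was not tested, and 22.0% of all genes were 1.5-fold or more lower and 28.9% higher in this cluster. Another 44 KO-labelled cells lay in the AT2-like cluster with Sftpc under 3%; they had Scgb1a1, an airway secretory gene, at 79979 CPM, a fatty acid sum of 3097 CPM and a sterol sum of 651 CPM, and were not counted as AT2 cells.

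In T or NK cell-like, B cell-like, fibroblast-like and monocyte-like cells the sterol arm was lower as a sum in the KO-labelled library. The interval of the fatty acid ratio included 0 in each. In T or NK cell-like cells the sum alone was lower, and the median over single sterol genes was not. In the fibroblast-like cells, 1213 FF-labelled and 539 KO-labelled, the sterol arm stood at 408 CPM (396 to 421) and 286 CPM (271 to 302), a log2 ratio of -0.51 (-0.60 to -0.43). Their fatty acid arm stood at 742 and 739 CPM, a ratio of -0.00 (-0.06 to 0.05). All 14 sterol genes had 50 UMIs, with a median ratio of -0.53 against 0.01 over 11890 genes, and 5 were 1.5-fold or more lower, Hmgcs1, Idi1, Fdft1, Sqle and Msmo1, against 5.45% of all genes. Msmo1, a demethylating step after lanosterol, went from 48.7 to 26.3 CPM (-0.89, -1.18 to -0.61), Hmgcs1 from 69.9 to 44.1 CPM (-0.66, -0.89 to -0.44) and Sqle from 18.4 to 10.2 CPM (-0.86, -1.35 to -0.40). Of the regulators, Insig1, itself a target of SREBP, went from 72.2 to 40.8 CPM (-0.82, -1.06 to -0.59), while Srebf2 had 65.0 and 64.4 CPM. In the fatty acid arm Acsl3 was lower, at 30.5 and 16.8 CPM, and Elovl5 higher, at 33.3 and 51.6 CPM.

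The fibroblast difference lay mostly in 1 of 3 clusters. In the cluster led by Clec3b, Dcn, Mmp3 and Pdgfra, with 721 and 243 cells, the sterol arm stood at 466 and 304 CPM, a log2 ratio of -0.62 (-0.73 to -0.51). In the cluster led by Apod, Inmt and Gpc3 the ratio was -0.12 (-0.33 to 0.09), and in the one led by Hhip, Aspn and Cyp2e1 -0.16 (-0.40 to 0.07). Endothelial-like cells, at 258 and 244 CPM in 5497 and 3467 cells, had a pooled ratio of -0.08 (-0.12 to -0.03) that joined clusters of opposite sign. The cluster led by Kit, Glp1r and Sema3c went from 278 to 223 CPM (-0.32, -0.39 to -0.24), and the one led by Fibin, Ednrb and Car4, genes of a capillary subset, from 225 to 286 CPM (0.35, 0.26 to 0.43). Only the latter was higher. The clusters led by Esm1 (-0.34, -0.48 to -0.20) and Ifit3 (-0.39, -0.74 to -0.04) were lower too. For those led by Slc6a2 (-0.10, -0.23 to 0.04) and Cytl1 (-0.33, -0.80 to 0.13) the interval included 0. No sterol gene of the pooled endothelial-like cells was past 1.5-fold, against 5.26% of all genes lower and 6.62% higher. Their fatty acid arm stood at 646 and 639 CPM, a ratio of -0.02 (-0.04 to 0.01), in which Scd1 was higher, at 53.3 and 81.9 CPM, and Fads2 lower, at 13.8 and 7.75 CPM.

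Blood-derived cells had few FF-labelled members. Monocyte-like cells had a sterol arm of 689 CPM in 24 FF-labelled and 351 CPM in 325 KO-labelled cells, a log2 ratio of -0.98 (-1.22 to -0.72), with 8 of 9 genes 1.5-fold or more lower against 11.4% of all genes. The FF-labelled sum rested on 151 UMIs, and those cells had Hbb-bs at 8924 CPM against 74.7 CPM, whose part was not tested. As a mean over cells the ratio was -0.53. B cell-like cells had 343 and 222 CPM in 43 and 305 cells (-0.63, -0.93 to -0.31), with Hbb-bs at 16572 and 57.8 CPM. T or NK cell-like cells had 235 and 176 CPM in 36 and 321 cells (-0.41, -0.76 to -0.05), with Hbb-bs at 24.7 and 703 CPM. Platelet or megakaryocyte-like cells had 193 and 120 CPM in 61 and 57 cells, on 71 and 39 UMIs (-0.68, -1.29 to -0.10), with Scgb1a1 at 9970 and 962 CPM. The part of these markers was not tested. In these 4 types the ratio of the fatty acid arm was -0.14, -0.06, -0.05 and 0.48. Its interval was off 0 only in the platelet or megakaryocyte-like cells (0.20 to 0.76). With finer clusters the ratio of T or NK cell-like cells was -0.71, but not of the same cells. There the name also took in another cluster, of 68 FF-labelled and 83 KO-labelled cells, beside the 36 and 321. That cluster shared leading genes with the unnamed cluster led by Scgb1a1 and Wfdc2.

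Pooled over the clusters of a type, the sterol ratios of the remaining named types were nearer to 0. Ciliated-like cells, with the Scgb1a1 levels given above, had 393 and 341 CPM in 207 and 62 cells (-0.20, -0.38 to -0.03), while the median of all their genes was itself -0.14. Smooth muscle or pericyte-like cells had 226 and 234 CPM (0.05, -0.18 to 0.29), which joined clusters of opposite sign. The ratio was -0.33 (-0.69 to 0.03) in the cluster led by Cox4i2, Lipg and Postn. In the cluster led by Acta2, Myh11 and Tagln it was 0.43 (0.10 to 0.76). The fatty acid ratio of the pooled type was -0.14 (-0.28 to -0.01). Lymphatic endothelial-like cells had 155 and 154 CPM of the sterol arm (-0.00, -0.50 to 0.48) and AT1-like cells 303 and 336 CPM (0.15, -0.18 to 0.48). Erythroid-like cells had 82.3 and 77.8 CPM on 17 and 30 UMIs, too few to tell. Over the 11 types with 20 cells in both libraries, 17 of the 22 arm sums were lower in the KO-labelled library by sign alone. These took in ratios whose intervals included 0. Among them were the sterol sum of lymphatic endothelial-like cells (-0.0016) and the fatty acid sums of fibroblast-like (-0.0048) and endothelial-like cells (-0.016). Stray RNA of AT2 cells was not subtracted from these sums. Its share of the fatty acid arm was larger in the FF-labelled library except in AT1-like cells. As an alternative, free RNA scaled to Sftpc was subtracted in the types other than AT1-like cells, and 4 of 20 ratios had the opposite sign.

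The 2 clusters left without a name had the opposite sterol difference and were not counted in those sums. In the cluster led by C1qa, C1qb, Mgl2 and Ccl17, genes of macrophages and dendritic cells, with 149 FF-labelled and 126 KO-labelled cells, the sterol arm stood at 301 and 617 CPM on 251 and 1106 UMIs, a log2 ratio of 1.03 (0.84 to 1.24). Cyp51, the lanosterol demethylase, had 16.8 and 79.8 CPM there (2.25, 1.45 to 3.15) and Fdps 49.2 and 113 CPM (1.20, 0.71 to 1.72). The fatty acid arm went the other way, at 646 and 501 CPM (-0.37, -0.52 to -0.21). The cells of this cluster were not alike in markers: endothelial markers summed to 14479 and 953 CPM and dendritic cell markers to 253 and 1703 CPM, and their part was not tested. In the other cluster, led by Scgb1a1 and Wfdc2 with 85 and 89 cells, the sterol arm stood at 174 and 240 CPM (0.47, 0.10 to 0.85) on 87 and 198 UMIs. Airway secretory markers summed to 224401 and 207422 CPM there, in FF-labelled and KO-labelled cells, far above every other marker list. The naming rule left the cluster unnamed all the same. T or NK cell markers stood at 7.99 and 524 CPM.

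**Figure D5:**
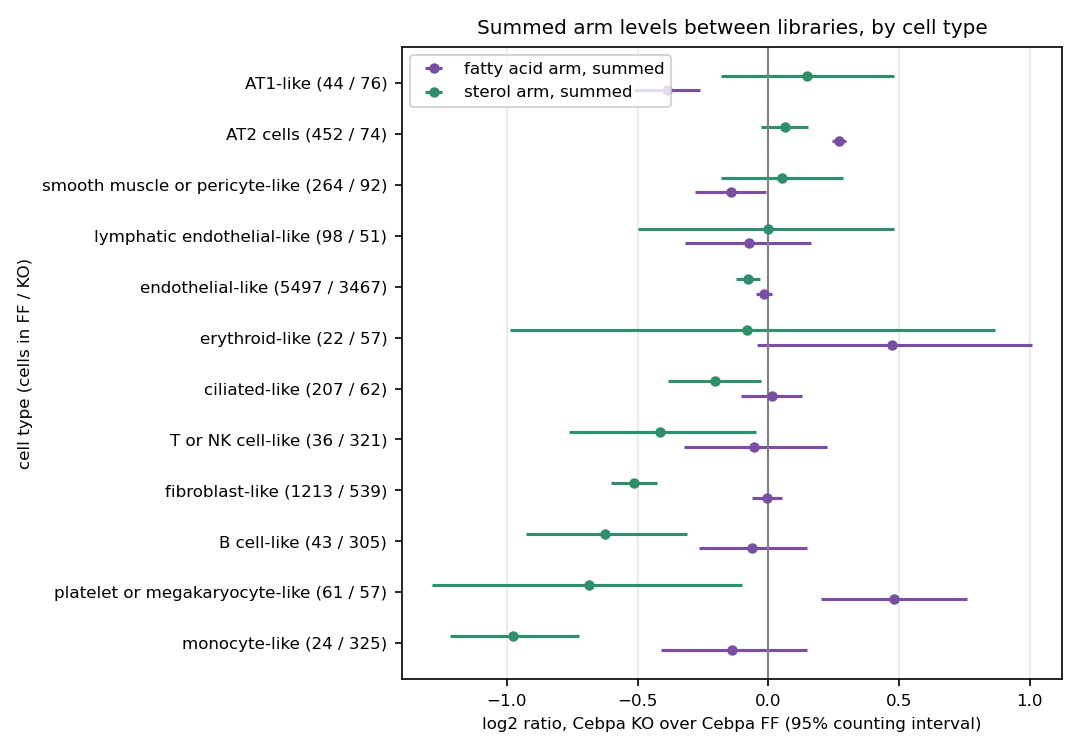
Log2 ratio of the summed fatty acid and sterol arm between the libraries, KO-labelled over FF-labelled, in AT2 cells and 11 other types ordered by the sterol ratio; bars are 95% counting intervals and cell numbers stand beside each type. The sterol arm lies below 0 from monocyte-like (-0.98) to ciliated-like cells (-0.20) and includes 0 in AT2 cells (0.06), while the fatty acid arm of fibroblast-like and endothelial-like cells lies at 0.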

How the data were processed

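The deposited matrices hold UMI counts per gene and barcode, which the authors made with Cell Ranger against mm10 (version 6.1.1 per the submitters' notes, 5.0.0 in the file headers); nothing was normalized, and the counts were made into CPM here. The members, gene lists and cell types were chosen with earlier results of these data known. Barcodes under 200 genes or over 20% mitochondrial counts were left out, which left 11487 of 11721 FF-labelled and 13238 of 13373 KO-labelled barcodes with 68802017 and 64452208 UMIs. No doublet caller was run, so doublets remain. Cells of both libraries were clustered in Seurat 5.3.0 (SCTransform per library, anchors, 30 components, resolution 0.5) with 32 lipid pathway genes taken out of the 3000 variable genes. A cluster was named from 18 marker lists, with a marker among its first 50 genes, 3 at 2-fold and no other list ahead in its first 10, or stayed unnamed; names rebuilt this way can differ from those of the study. UMIs were summed over cells. Level intervals are exact Poisson, ratio intervals are exact conditional binomial, and both are 95% and computed in SciPy 1.17.1. Ratios were given for genes with 50 or more UMIs over both libraries, and 1.5-fold is a limit of size, not a test. All 42 genes could be named; of the other pathway genes, those past 1.5-fold and up to 3 per list by UMIs, except for some that are not reported here. The ratio computation was tested on simulated data. Coordinates are of GRCm38. Alternatives changed the limits on UMIs, Sftpc and barcode quality, the cells taken, the denominator, the averaging, free RNA and cluster resolution.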

Additional observations from a re-analysis of the deposited data

How the results depend on the processing

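No paired analysis was possible because each genotype is 1 library, and for the same reason no replicate could be left out. The log2 ratio of the fatty acid sum in AT2 cells (0.27) kept its sign except with Sftpc at 1% or more, where it was -0.0053; so did Fasn at -0.093, Acly at -0.034 and Scd2 at -0.11, and Scd2 with a minimum of 1000 UMIs at -0.018. The fatty acid sum was 0.16 with a minimum of 1000 UMIs, 0.37 without cells holding markers of a non-epithelial type, 0.31 in AT2-like clusters, 0.31 as a mean over cells, 0.21 per UMI other than Sftpc, 0.22 centred on all genes, 0.35 with free RNA subtracted and 0.21 with 500 genes and 10% mitochondrial counts. The sterol sum (0.06) was -0.060 with 1000 UMIs, -0.14 with Sftpc at 1% and 0.23 without cells holding those markers, and the fatty acid median (0.08) was -0.10 with Sftpc at 1%. The median of all genes was itself 0.18 with Sftpc at 1%, against 0.05 at the main limits. The cause of these shifts was not tested. The count of genes 1.5-fold or more lower was 1, Acss2, instead of 0 with 1000 UMIs, with Sftpc at 10%, without cells holding those markers and with 500 genes and 10% mitochondrial counts. The count higher, 1 at first, was 2 with 5000 UMIs, 4 with 10000 UMIs (a limit added after the data were seen), 0 with Sftpc at 1%, 2 with Sftpc at 10%, 5 without cells holding those markers, 2 in AT2-like clusters, 4 as a mean over cells, 2 with free RNA subtracted, 0 with 500 genes and 10% mitochondrial counts, and 4 with no minimum of UMIs, where counts under 3 were raised to 3. Over the other cell types, 17 of 22 arm sums were lower by sign alone in the KO-labelled library. Under the alternatives 12 to 17 were, of 20 to 24 sums. Free RNA scaled to Sftpc could not be subtracted from AT1-like cells. Of 632 values of single genes and types, 593 stayed within their counting interval, 35 left it, and 4 turned from an interval that had not included 0. In all, 80 of the 632 had the opposite sign, of which 15 with Sftpc at 1% or more.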
